A study of Mus musculus with 4 samples.

Results

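KDM5C peaks were examined at the promoters of 5 pairs of paralogues, in each of which the gene used in most tissues has a relative used mainly in the testis. The testis genes were Cyct, Ldhc, Gapdhs, Pgk2 and D1Pas1, and their somatic partners were Cycs, Ldha, Gapdh, Pgk1 and Ddx3x. These 10 genes, of the 22359 protein-coding genes in the mm9 annotation used, were chosen by name as pairs. A promoter was counted as holding a peak when the midpoint of a peak lay within 1 kb of any annotated transcription start site (TSS) of the gene.

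KDM5C, or SMCX, was profiled by ChIP-Seq in male XΔTsixY mouse epiblast-like cells (EpiLCs) at day 2 of differentiation. The labels give the strain as C57BL/6J, whereas the methods of the study place its mutant mice on 129/Sv or mixed backgrounds. All cells, controls included, carried a truncated Tsix, the antisense repressor of Xist, on their only X chromosome. Cells with intact Kdm5c (WT) and cells carrying a Kdm5c deletion (KO) each gave 1 immunoprecipitated and 1 input sample, 4 samples in all, and 1 peak list per genotype. Per the methods of the study, the WT cells came from more than 1 independent embryonic stem cell line, and KDM5C ChIP in KO cells was made on 1 sample. By this account the KO list stands for that sample alone. A supplementary table of the study nonetheless gives KDM5C reads at Xist for more than 1 KO replicate. The exact stage of the cells at day 2 is described differently in the labels and in those methods. Peak lists do not measure expression, so neither the cell type nor the loss of Kdm5c was checked here.

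KDM5C is a demethylase of lysine 4 of histone H3, whose methylation is found at active and CpG-rich promoters, and KDM5C has been linked to silencing of germline genes outside the germ line. Sperm precursors make testis forms of several metabolic and RNA-binding proteins. Many of these genes arose as retrocopies of an X-linked parent, which is silenced with the rest of the X chromosome during male meiosis. Cytochrome c carries electrons in the respiratory chain, lactate dehydrogenase, glyceraldehyde-3-phosphate dehydrogenase and phosphoglycerate kinase are enzymes of glycolysis, and DDX3X is an RNA helicase that acts in translation.

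For each pair but Gapdhs and Gapdh, 200 bases are given from the mm9 reference, 5′ to 3′ in the direction of transcription, with each CpG in capitals. These sequences are shown because CpG content differs within most pairs, and they cover the bases before the TSS or, for Cyct, Cycs and Ldha, the bases under the summit of the peak.

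For D1Pas1 and Ddx3x the 200 bases before the TSS are shown, at chr1:188791095-188791294 and chrX:12857896-12858095, both on the plus strand. The D1Pas1 stretch lay under the peak of the WT list and held 8 CpGs, and the Ddx3x stretch, where no peak was called, held 14.
D1Pas1: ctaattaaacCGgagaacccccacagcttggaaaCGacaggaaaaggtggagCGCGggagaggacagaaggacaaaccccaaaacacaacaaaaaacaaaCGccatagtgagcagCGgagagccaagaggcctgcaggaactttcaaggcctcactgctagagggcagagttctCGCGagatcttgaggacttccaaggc
Ddx3x: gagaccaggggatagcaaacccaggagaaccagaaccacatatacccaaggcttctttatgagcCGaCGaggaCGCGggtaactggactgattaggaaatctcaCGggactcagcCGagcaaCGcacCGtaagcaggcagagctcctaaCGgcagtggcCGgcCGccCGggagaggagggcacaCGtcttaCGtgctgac

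For Cyct, 200 bases of intron 1 with the summit are shown, at chr2:76198170-76198369 on the minus strand, and for Cycs the 200 bases around the summit, at chr6:50516671-50516870 on the minus strand. The Cyct stretch held 8 CpGs and the Cycs stretch 19.
Cyct: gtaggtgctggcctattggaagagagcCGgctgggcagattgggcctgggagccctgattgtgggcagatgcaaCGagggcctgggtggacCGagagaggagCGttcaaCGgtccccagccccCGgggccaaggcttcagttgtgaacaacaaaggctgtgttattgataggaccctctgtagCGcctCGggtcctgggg
Cycs: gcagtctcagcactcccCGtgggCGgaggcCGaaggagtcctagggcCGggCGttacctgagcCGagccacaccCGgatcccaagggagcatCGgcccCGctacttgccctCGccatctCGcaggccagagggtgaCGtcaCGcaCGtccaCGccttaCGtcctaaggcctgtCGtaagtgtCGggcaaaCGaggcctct

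For Ldha the 200 bases around the summit of its higher peak are shown, at chr7:54100816-54101015, and for Ldhc the 200 bases before the TSS, at chr7:54116373-54116572, both on the plus strand. The Ldha stretch held 8 CpGs and the Ldhc stretch, which had no peak, held 5.
Ldha: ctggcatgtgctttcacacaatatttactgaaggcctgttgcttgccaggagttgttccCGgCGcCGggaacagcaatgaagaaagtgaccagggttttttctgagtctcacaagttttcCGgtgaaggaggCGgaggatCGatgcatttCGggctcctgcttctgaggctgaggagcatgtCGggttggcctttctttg
Ldhc: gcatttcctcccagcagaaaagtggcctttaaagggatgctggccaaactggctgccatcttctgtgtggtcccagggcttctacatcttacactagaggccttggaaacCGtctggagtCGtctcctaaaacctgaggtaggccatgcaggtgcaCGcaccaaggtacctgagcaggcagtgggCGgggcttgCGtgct

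For Pgk2 and Pgk1 the 200 bases before the TSS are shown, at chr17:40345555-40345754 on the minus strand and chrX:103382239-103382438 on the plus strand. Neither had a peak, and the Pgk2 stretch held 3 CpGs against 12 in Pgk1.
Pgk2: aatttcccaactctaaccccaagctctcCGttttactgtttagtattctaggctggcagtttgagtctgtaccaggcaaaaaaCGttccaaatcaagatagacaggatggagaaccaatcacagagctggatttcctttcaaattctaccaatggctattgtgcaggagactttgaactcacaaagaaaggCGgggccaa
Pgk1: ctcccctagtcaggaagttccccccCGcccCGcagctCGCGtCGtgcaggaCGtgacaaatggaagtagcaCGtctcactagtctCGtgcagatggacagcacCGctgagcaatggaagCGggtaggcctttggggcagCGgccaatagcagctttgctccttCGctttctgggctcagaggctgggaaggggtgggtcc

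KDM5C peaks were listed in WT cells at 4 of the 10 promoters, those of D1Pas1, Ldha, Cycs and Cyct. That is 40% of the genes, beside 24% of all protein-coding genes (5358 of 22359), a share that rests on 10 genes and was not tested. The same 4 genes were found with a window of 500 bp, where 21.8% of all protein-coding genes had a peak, and of 5 kb, where 27% did. They were also found with summits in place of midpoints (23.9% of all genes), with TSSs of coding transcripts alone (23.5%), and where the TSS itself had to lie inside the peak (17.2%). At or above 82, the median score of the WT list, 3 of the 10 had a peak, beside 13% of all genes, and Cyct was the gene that dropped out. The 4 genes were split evenly, with 2 of the 5 testis genes and 2 of the 5 somatic genes. Within pairs, D1Pas1 had a peak and Ddx3x had none, Ldha had peaks and Ldhc had none, both Cyct and Cycs had 1, and neither gene had a peak in the Gapdhs and Gapdh pair or in the Pgk2 and Pgk1 pair. Each of these 4 outcomes therefore occurred in 1 pair except the last, which occurred in 2.

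The KO list, which shows what the antibody recovers without intact KDM5C, held a peak at 0 of the 10 promoters, where 0.0939% of all protein-coding genes (21 of 22359) had 1. No KO peak overlapped any of the peaks at these genes. The WT list held 6916 peaks on assembled chromosomes and the KO list 44. The lists give no read counts, so the depth behind each peak is not analysed here. As the WT replicates were called together into 1 list and the KO list came from 1 sample, no value has a replicate error, and neither genotypes nor genes were compared by a test.

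**Figure D1:**
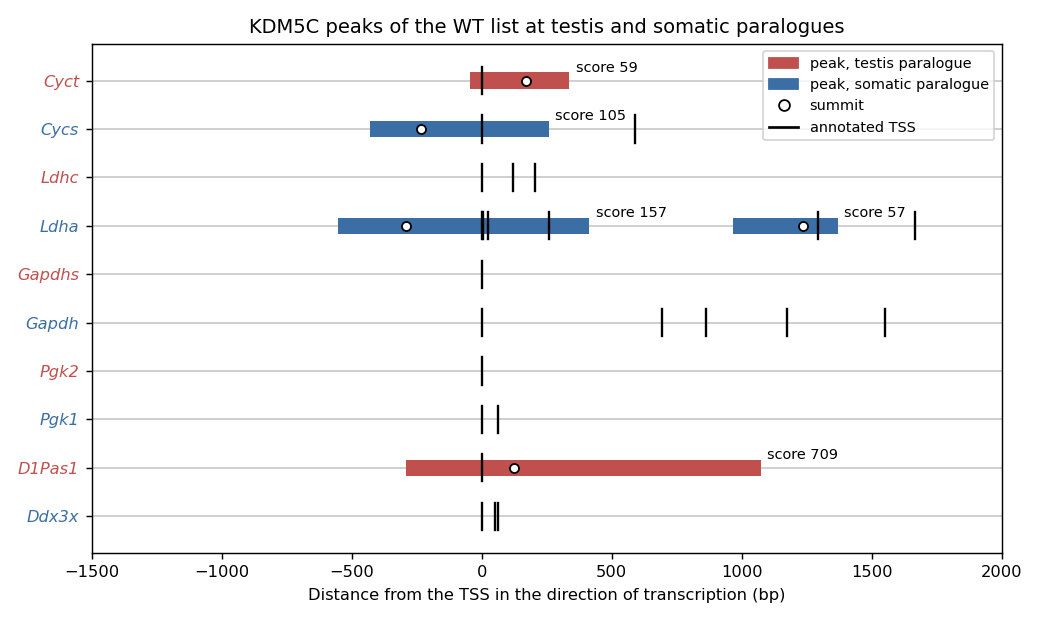
WT peaks at the 10 genes, drawn as bars against the distance in bp from a TSS of each gene in the direction of transcription (the TSS nearest the main peak, or the first coding TSS where no peak was called). White circles are summits and black ticks are annotated TSSs. The D1Pas1 peak, of score 709, runs from 290 bp before to 1073 bp after the TSS and is the widest, and Ldhc, Gapdhs, Gapdh, Pgk2, Pgk1 and Ddx3x have no bar.

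The largest contrast within a pair was between D1Pas1 and Ddx3x. D1Pas1 is a testis-expressed, intronless relative of the X-linked helicase gene Ddx3x, and it lies on chromosome 1 (chr1:188791295-188794506, plus strand, 1 exon). Over 1980 aligned coding bases the pair was 87.4% identical, the closest of the 5 pairs. The peak at D1Pas1 spanned chr1:188791005-188792368, a width of 1364 bp. Its score, which is 10 times the −log10 of the q-value, was 709, and its fold enrichment over input was 10.9. The −log10 of the p-value was 75.8 and that of the q-value was 71.0. It ranked at place 167 of the 6916 WT peaks by score, above 97.6% of them, and above 97.2% of the peaks at protein-coding promoters. It was also wider than 98.2% of WT peaks, and its fold enrichment was above that of 98.0%. Of the 1364 bases, 290 lay before the TSS, 460 in the 5′ UTR and 614 in the coding sequence, and the summit fell in the 5′ UTR, 124 bp after the TSS of D1Pas1.

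Among the 5358 genes with a promoter peak, D1Pas1 took place 163 by score and shared its score with 1 other gene, making 2 genes in all at that value. The nearest in score were Clns1a, with 710, and AI314180, with 708. D1Pas1 was the only gene of the 10 at or above 320, the 90th percentile of WT scores, a level that 2.79% of all protein-coding genes reached.

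Ddx3x, on the X chromosome (chrX:12858096-12871178, plus strand), had no WT peak within 1 kb of its 5 annotated TSSs. The nearest WT peak midpoint was 198597 bp away, in a peak of score 1107 that lay 4651 bp from a TSS of Gm14506. The promoters of both genes were CpG-rich, with an observed to expected CpG ratio of 0.746 and a GC content of 59.4% at D1Pas1 and of 0.797 and 60.7% at Ddx3x, over 500 bp on each side of the TSS. Here a promoter was called CpG-rich at a ratio of at least 0.6 with a GC content of at least 50%. All 50-base words within 1 kb of either TSS occurred once in the genome, so reads of that length could be placed at both. Ddx3x lies on a chromosome with few calls: 8.48% of X-linked genes had a WT peak (79 of 932), and among CpG-rich promoters the share was 28.7% on X (64 of 223) and 44.5% on the autosomes (4334 of 9742). The part of this in the missing call at Ddx3x was not tested.

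Of the relatives of Ddx3x, only Ddx4 and Ddx3y were looked up, chosen by name, so their values give no share for the family. Ddx4, a germline helicase of the same family that is required for male germ cells, held a WT peak of score 1455, enriched 15.8-fold, which ranked at place 18 of all WT peaks (chr13:113441987-113442828, summit 1 bp after the TSS). The WT list held 0 peaks on chromosome Y, so it gives no measure particular to Ddx3y, the Y-linked copy.

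The cytochrome c genes were the only pair with a peak at both. Cyct encodes the testis cytochrome c and lies on chromosome 2 (chr2:76191999-76198507, minus strand, 4 exons). Its peak spanned chr2:76198170-76198551, 382 bp wide. It scored 59, was enriched 3.35-fold over input and had a −log10 q-value of 5.91. The score ranked at place 4479 of the 6916 WT peaks, with 33.1% of peaks below it, and 22.3% of WT peaks were narrower. The summit lay 171 bp after the TSS in intron 1, and the peak took in 44 bases before the TSS, 138 of the 5′ UTR and 200 of the intron. Among genes with a promoter peak Cyct was at place 3695, in a set of 120 genes with the same score, between Xkr6 at 60 and Aldh16a1 at 58.

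Cycs, the somatic cytochrome c gene (chr6:50512562-50516537, minus strand, 3 exons), had the higher score of the pair. Its peak spanned chr6:50516279-50516968, 690 bp wide. It scored 105, was enriched 4.22-fold over input and had a −log10 q-value of 10.5. It ranked at place 2722, above 60.1% of WT peaks, and its summit lay 234 bp before the TSS. The difference in score between Cyct and Cycs comes from 1 list and has no error attached. The Cycs peak also covered TSSs of 5430402O13Rik, a lincRNA transcribed from the opposite strand, at 19 bp and 114 bp from the peak midpoint. The midpoint lay 86 bp from the Cycs TSS, so the peak cannot be assigned to Cycs alone. Unique 50-base words made up 89.1% of the Cycs peak, and all of the Cyct peak.

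The 2 promoters differed in sequence. Cyct was not CpG-rich at its TSS, with a ratio of 0.332 and a GC content of 51.1%, while Cycs had 0.847 and 63.0%. The bases within the Cyct peak had a ratio of 0.370 and a GC content of 61.5%, and those of the Cycs peak 0.948 and 66.5%. A WT peak was present at 7.75% of promoters that were not CpG-rich (960 of 12394) and at 44.1% of those that were (4398 of 9965). The coding sequences were 76.1% identical over 318 bases.

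**Figure D2:**
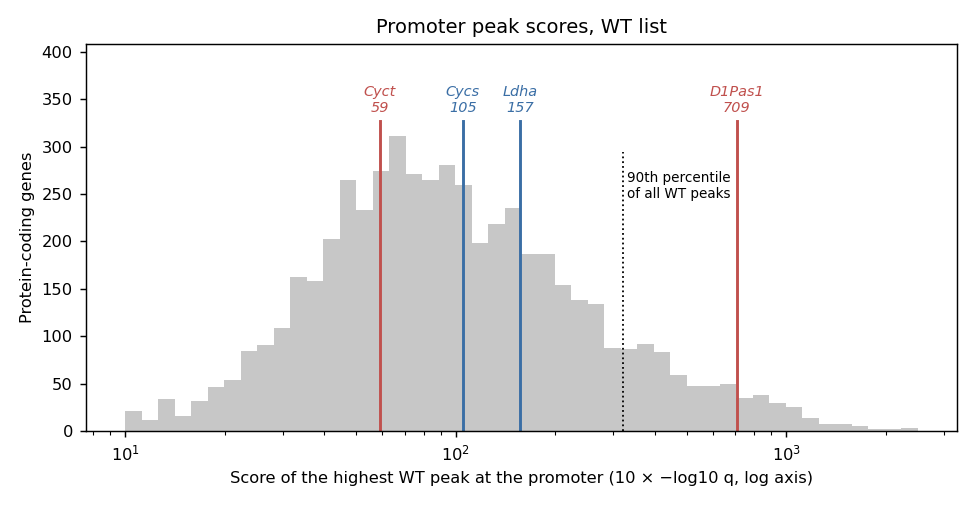
Number of protein-coding genes by the score of their highest WT promoter peak (10 times −log10 q, log axis), with the 4 genes that had a peak marked by lines and the 90th percentile of all WT peaks, 320, dotted. D1Pas1, at 709, is to the right of the dotted line, and Cyct, Cycs and Ldha, at 59, 105 and 157, are to its left.

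Lactate dehydrogenase gave the opposite outcome to D1Pas1 and Ddx3x. Ldha and Ldhc are neighbours on chromosome 7, Ldha at chr7:54096845-54110997 and Ldhc, the sperm form, at chr7:54116573-54133512, both on the plus strand. Ldha, which makes lactate from pyruvate in most tissues, held 2 WT peaks. The higher spanned chr7:54100658-54101623, 966 bp wide. It scored 157, was enriched 4.06-fold and had a −log10 q-value of 15.7, at place 1775 of the WT peaks and above 74.1% of them. Its summit lay 293 bp before the nearest TSS, in an intron of a longer transcript. The lower spanned chr7:54102177-54102579, 403 bp wide, and scored 57 with an enrichment of 3.31-fold, and its summit lay 55 bp before another annotated TSS of Ldha.

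No WT peak was listed at Ldhc. The nearest midpoint was 14195 bp from a TSS of Ldhc, and it belonged to the lower of the Ldha peaks. At Ldhc 99.5% of 50-base words within 1 kb of the TSS were unique, so mapping was possible over nearly the whole window. The CpG ratio was 0.218 at the Ldhc TSS and 0.264 at the first coding TSS of Ldha. At the coding TSS of Ldha with the highest CpG ratio, at position 54101233 and under the higher peak, it was 0.792. The coding sequences were 73.9% identical over 998 aligned bases.

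The other glycolytic pairs had no WT peak at either gene. Gapdhs, the sperm glyceraldehyde-3-phosphate dehydrogenase gene (chr7:31514799-31528700, minus strand, 11 exons), had a CpG ratio of 0.102, and 7.16% of protein-coding promoters had a lower ratio. Its nearest WT peak, of score 233, lay 9803 bp from a TSS, and that peak was 19 bp from the TSS of Tmem147, with 96 of its bases inside the 3′ end of Gapdhs. Mapping was limited at Gapdhs. Only 63.6% of 50-base words within 1 kb of its TSS were unique, and 505 words between positions 31528206 and 31528952 recurred on the same strand between 31523914 and 31524649, a median of 4292 bp away and around the second annotated TSS of the gene. As only uniquely mapped reads were kept, a peak in the repeated stretch could have been missed, and whether this bears on the missing call was not tested.

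Gapdh, the somatic enzyme (chr6:125111871-125116485, minus strand), had all of its 50-base words unique and a CpG ratio of 0.286 at its first coding TSS, and of 0.677 at the most CpG-rich. The nearest WT peak was 80581 bp away and had a score of 30. The pair was 72.4% identical over 990 aligned coding bases, the least of the 5.

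Pgk2, the intronless testis phosphoglycerate kinase gene (chr17:40343963-40345554, minus strand, 1 exon), had a CpG ratio of 0.235 and a GC content of 41.3%, the lowest GC content of the 10 genes. The nearest WT peak was 362687 bp away. At that distance it is not a peak of the Pgk2 promoter. The peak, of score 914 and fold enrichment 2.90, lay 2905 bp from the TSS of a pseudogene, AY036118, and overlapped 1 KO peak. Pgk1, the X-linked parent gene (chrX:103382439-103399038, plus strand, 11 exons), was CpG-rich, with a ratio of 0.666 and a GC content of 56.9%, and its nearest WT peak was 159939 bp away at Atp7a. Unique 50-base words made up 98.3% of the window at Pgk2 and 95.4% at Pgk1. The coding sequences were 79.3% identical over 1254 bases. Of the genes whose testis copy is intronless, D1Pas1 thus held a peak and Pgk2 did not, and the former was CpG-rich and the latter was not.

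Across the 10 genes, 4 promoters were CpG-rich by the first coding TSS, those of Cycs, Pgk1, D1Pas1 and Ddx3x. Of these, 2 held a peak, where 44.1% of all CpG-rich promoters did. Of the 6 that were not, Cyct and Ldha held a peak, where 7.75% of all such promoters did. The Ldha peaks lay at other TSSs than the first coding one. At its most CpG-rich coding TSS, under the higher peak, the ratio was 0.792. By the first coding TSS, 1 of the 5 testis genes and 3 of the 5 somatic genes were CpG-rich. When the most CpG-rich coding TSS was used in place of the first, Ldha and Gapdh joined the CpG-rich genes, 6 in all.

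**Figure D3:**
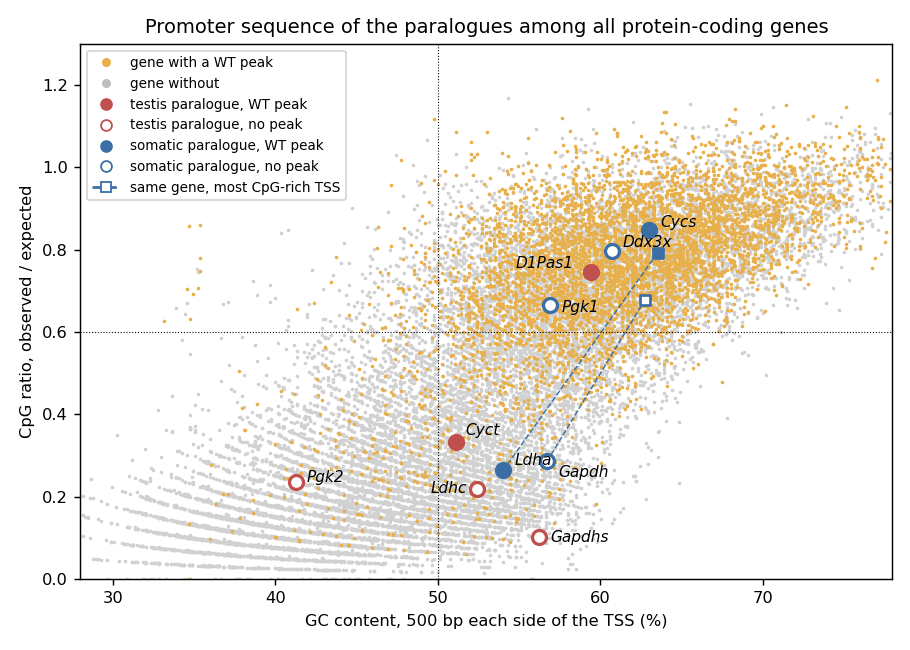
CpG ratio (observed over expected) against GC content (%) over 500 bp on each side of the first coding TSS, for all protein-coding genes (small points, orange with a WT peak) and the 10 paralogues (large circles, filled with a WT peak). Dotted lines are the limits for CpG-rich, and squares give the most CpG-rich coding TSS of Ldha and Gapdh. D1Pas1 lies in the CpG-rich corner, while the circles of Pgk2, Ldhc, Cyct, Gapdhs, Ldha and Gapdh lie below a ratio of 0.6.

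The score of the 4 genes with a peak ranged from 59 to 709 with a median of 131, beside a median of 90 over all 5358 genes with a promoter peak. The somatic pair of values, 105 at Cycs and 157 at Ldha, lay between those of the testis genes Cyct and D1Pas1.

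Sequence motifs were counted from 250 bases before to 50 after the first coding TSS, on both strands. For Ldha this TSS, at position 54096845, lies outside both of its peaks, so the promoter under its higher peak was not counted. The E-box CACGTG, a word bound by MAX and MYC family proteins, was found at 0 of the 10 promoters, against 7.78% of all protein-coding promoters and 13.7% of those with a WT peak. The word GCGGGA, the core of E2F sites, was found at 2 of the 10, Cyct and D1Pas1, against 24.7% of all promoters and 40.5% of those with a WT peak. In D1Pas1 the word GCGGGA lay 144 bases before the TSS, within the printed sequence. In Cyct it lay 24 bases before the TSS. With 500 bp on each side of the first coding TSS, CACGTG was found at 2 of the 10, D1Pas1 and Ddx3x, against 3810 of all 22359 promoters, and GCGGGA at 5, against 10652 (47.6%).

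Elsewhere in the peaks, D1Pas1 had CACGTG 281 bases before the TSS and GCGGGA again at 676 and 824 bases after it. The higher Ldha peak had CACGTG at 177 and 80 bases before the TSS at position 54101209, which lies under that peak. It also had GCGGGA at 544 and 71 bases before that TSS. The counts above used the first coding TSS of Ldha and leave these words out. The Cycs peak had GCGGGA 71 bases after the TSS of Cycs. In the 300 bases around the summits, CACGTG was present at the higher Ldha peak only, beside 20.6% of all WT peaks, and GCGGGA at none of the 5 peaks, beside 41.3% of all WT peaks. These words are descriptions of sequence and do not show that a factor was bound.

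A further 26 pairs of the same kind were listed, of which 25 had both genes in the annotation, 51 genes in all. Of these 51 genes, 17 (33.3%) had a WT peak, beside 24% of all protein-coding genes, and 0 had a KO peak. Testis genes had a peak in 8 of 25 cases (32%), with a median score of 148.5 and a range from 37 to 969. Somatic genes had 1 in 9 of 26 cases (34.6%), with a median of 74 and a range from 26 to 628. Of the somatic genes 10 lay on X, and 3 of these had a peak. Their scores were 26 at Slc25a5, 48 at Cstf2 and 51 at Prps1. Of the testis genes 1 lay on X, Taf7l, with a peak of score 130. The part of this in the medians was not tested. The testis gene alone had a peak in 6 pairs, the somatic gene alone in 7, both in 2 and neither in 10. A peak at the testis gene alone, as at D1Pas1 and Ddx3x, and a peak at the somatic gene alone, as at Ldha and Ldhc, were thus both found among these pairs. Starts of other genes were looked for only at the peaks of the 10 genes. A peak counted in these further pairs may therefore be shared with a neighbouring gene.

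The highest score among these testis genes was at Slc25a31, the testis form of the mitochondrial ADP/ATP carrier, with 969 and an enrichment of 13.6-fold. Its X-linked partner Slc25a5 had a peak of score 26. Rbmxl2, an intronless relative of the X-linked RNA-binding gene Rbmx, had 332, and Rpl10l, a retrocopy of the X-linked ribosomal gene Rpl10, had 305, and neither Rbmx nor Rpl10 had a peak. Looked up after these values were seen, 10 of these pairs had an autosomal testis gene and an X-linked somatic gene, as D1Pas1 and Ddx3x do. The testis gene had the higher score, or the only peak, in 4 of the 10, and the somatic gene, Cstf2 at 48 or Prps1 at 51, in 2. Neither gene had a peak in the other 4, as was the case for Pgk2 and Pgk1. Each of these pairs sets an autosomal gene against an X-linked gene in male cells. Over all genes, CpG-rich promoters had a peak in 44.5% of cases on the autosomes and 28.7% on X. The part of this in the counts was not tested.

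The other testis genes with a peak were Tuba3a, a tubulin gene, at 167, Taf7l, an X-linked relative of a general transcription factor gene, at 130, Calr3, a testis calreticulin, at 76, Utp14b, a retrocopy of a ribosome assembly gene, at 59, and Tktl2, a transketolase relative, at 37. Whether any of these peaks also covers the start of another gene was not checked. The somatic genes at or above 320 were Tkt, the transketolase gene, with 628, and Ubqln1, a ubiquilin gene, with 451. Of the 7 CpG-rich testis genes in these pairs, 5 had a peak, and of the 19 CpG-rich somatic genes, 9 had 1, where 44.1% of all CpG-rich promoters did. On the X chromosome 4 of 11 genes of the list had a peak, where 8.48% of all X-linked genes and 28.7% of those with a CpG-rich promoter did.

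**Figure D4:**
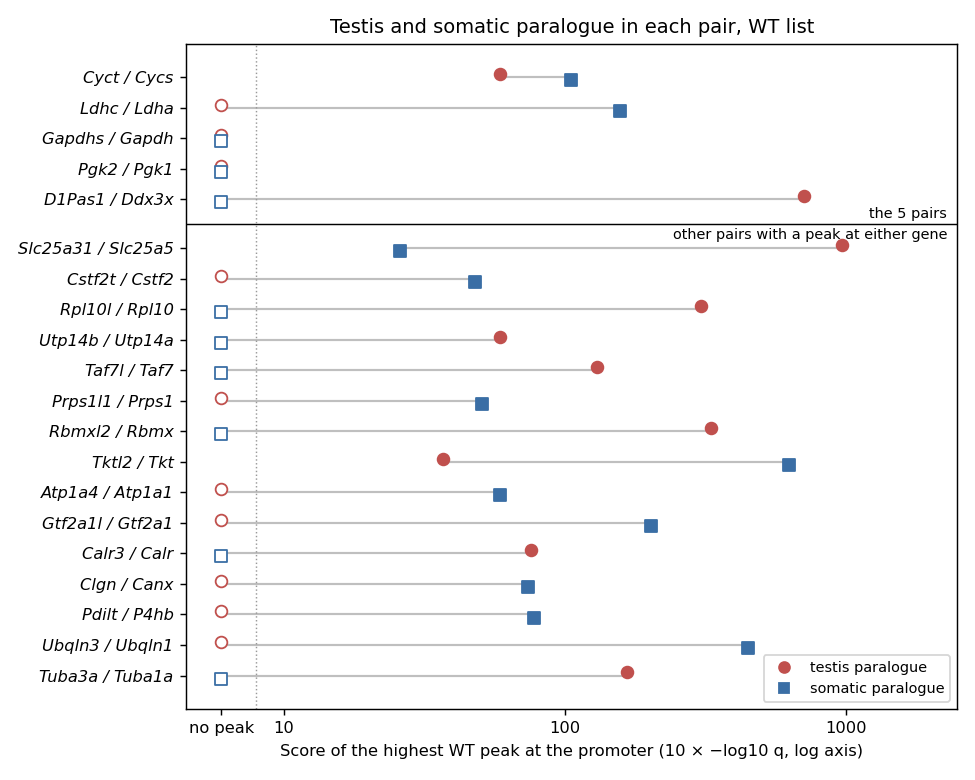
Score of the highest WT promoter peak (10 times −log10 q, log axis) at the testis gene (circles) and the somatic gene (squares) of each of the 5 pairs and of the other pairs with a peak at either gene. Open symbols mark genes with no peak. D1Pas1 lies at 709 with Ddx3x at no peak, and Slc25a31 lies at 969 with Slc25a5 at 26.

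Glycolysis genes were counted because 6 of the 10 paralogues encode glycolytic enzymes or lactate dehydrogenases. Of 20 glycolysis genes, 6 (30%) had a WT peak, with scores from 29 to 157 and a median of 67.5, and 0 had a KO peak. Over all protein-coding genes 24% had a WT peak, with a median score of 90. The highest was Ldha itself. Without Ldha, Gapdh and Pgk1, 5 of 17 (29.4%) had a peak, namely the lactate transporter gene Slc16a1 at 109, the enolase gene Eno1 at 81, the phosphoglycerate mutase gene Pgam1 at 54 and the hexokinase genes Hk2 and Hk1 at 40 and 29. None of them reached 320.

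**Figure D5:**
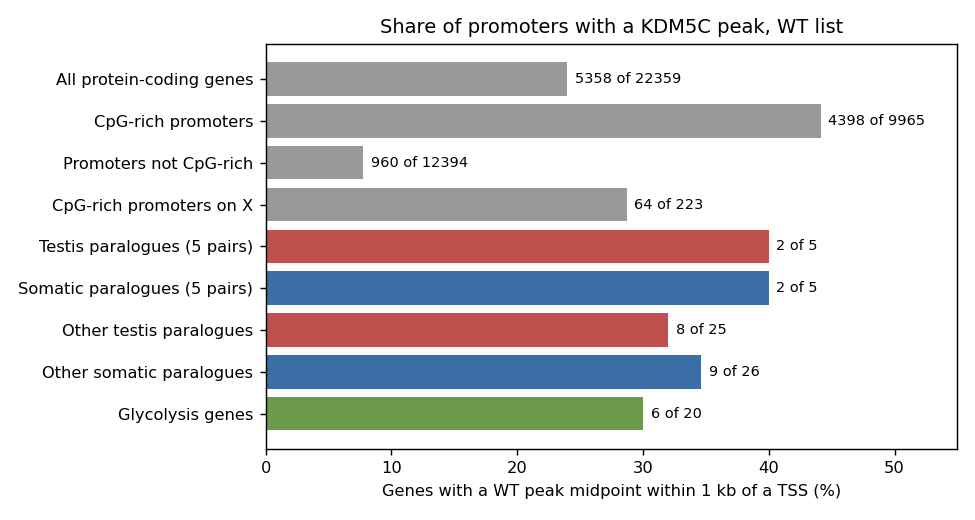
Share of genes (%) with a WT peak midpoint within 1 kb of a TSS, with the number of genes beside each bar. The testis and somatic genes of the 5 pairs both stand at 40%, all protein-coding genes at 24%, CpG-rich promoters at 44.1% and promoters that are not CpG-rich at 7.75%.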

How the data were processed

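KDM5C ChIP-Seq peak lists for WT and KO cells were analysed, 1 per genotype. Per the labels and the methods of the study, the authors aligned reads of 50 bases to mm9 with Bowtie (1.1.2 in the submitters' processing notes), kept uniquely mapped reads and called peaks against input with MACS2 2.1.0.20140616. Drosophila chromatin was spiked in (dm6). WT peak names speak of replicates and KO peak names of a single replicate, as do the methods of the study, so the WT list rests on replicates called together. The series text speaks of technical duplicates.

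The authors deposited for each peak a score, a fold enrichment over input (a ratio), p-values and q-values as −log10, and where its summit lies relative to its start. The deposited score equalled 10 times −log10 q with decimals dropped in 100% of peaks. The reporting form of the study states a minimum depth for every sample, but the lists give no read counts. Fold enrichments were not compared between lists.

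Peaks were assigned with GENCODE M1 annotation on NCBIM37, the same assembly as mm9, counted from 1, using Python 3.11.15, pandas 2.3.3 and NumPy 2.4.6. The annotation held 37273 genes and 95458 transcripts. Peaks on random contigs were left out. CpG ratios, 50-base words occurring once in the genome (Numba 0.67.0), words and printed bases came from the reference sequence. No protein table was used, so identity within pairs was computed over coding sequence (Biopython 1.88, global alignment) in place of protein identity. Peak assignment was tested on simulated data.

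The 10 genes, the pair list and the glycolysis list were chosen with earlier results of these data known. Named genes were the 10, listed genes at or above the WT 90th percentile or with a KO peak, other testis paralogues with a WT peak, lincRNA or other genes starting at a peak of the 10, and the genes adjacent in score to Cyct and D1Pas1. Partners of named testis genes, the remaining glycolysis genes with a peak, and genes at the nearest peaks were named after their values were seen. Ldhal6b was not found in the annotation under that symbol.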

Additional observations from a re-analysis of the deposited data

How the results depend on the processing

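Each genotype gave 1 list, so no value carries a replicate error, and depth could not be varied. No paired analysis was possible because WT and KO cells gave 1 list each. Of 79 alternative values for 18 results, 65 were unchanged or within 1.5 times and 14 moved. The 65 include scores of the same peaks read again and a KO count of 0 at every setting, so they overstate stability. All of the moves came at the score limits and with the wider motif window. Windows of 500 bp and 5 kb, summits in place of midpoints, coding TSSs alone, and the TSS base inside the peak each gave 4 of the 10 genes, Cyct, Cycs, Ldha and D1Pas1, and KO peaks at 0. With scores at or above the WT median of 82, Cyct no longer counted, leaving 3 of the 10. The counts were 8 of the 51 other paralogues and 2 of the 20 glycolysis genes, beside 13% of all protein-coding genes. At or above the 90th percentile, 320, the counts were 1 of the 10 (D1Pas1), 4 of the 51 and 0 of the 20, beside 2.79% of all protein-coding genes. D1Pas1 and Ddx3x was the 1 pair with a peak at the testis gene alone at every one of these settings, while Cyct and Cycs became a pair with the somatic gene alone at the median. With 500 bp on each side of the first coding TSS, 2 of the 10 promoters held CACGTG and 5 held GCGGGA, against 3810 and 10652 of all 22359 protein-coding promoters. The number of CpG-rich genes among the 10 was 4 with 250 bp on each side, 3 with 1 kb, and 6 by the most CpG-rich coding TSS, a choice made after seeing the data. The lowest share of unique words, at Gapdhs, was 63.6% over 1 kb and 47.0% over 500 bp.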
